A study of Mus musculus with 2 samples.

Results

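The proteasome genes described here are the 49 mouse genes whose symbols start with Psma, Psmb, Psmc, Psmd, Psme, Psmf or Psmg and that have a probe set of their own on the array. They were chosen by name alone, from probe sets that the platform annotation pairs with exactly 1 gene symbol, and they make up 49 of 18193 named genes and 103 of 45037 probe sets. Of the 49, 47 encode subunits, activators, an inhibitor or assembly factors of the proteasome. Psmc3ip, a meiotic recombination factor, and Psme3ip1, a partner of the activator PA28 gamma, match by name and are not subunits. Psme2, the other PA28 chain, shares its probe set with Psme2b and is not among the 49.

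All values come from 1 Affymetrix array of C57BL/6 femoral bone marrow cells exposed to ID8 cells, a mouse ovarian tumour line. By the protocol, marrow cells lay in the lower chamber of a 24-well transwell plate under the tumour cells for 4 days, in medium with 5% FBS. They became what the labels call MDSC (myeloid-derived suppressor cells, which restrain T cells), of CD11b+Gr1+ phenotype. The sample title instead names ID8 supernatant as the inducer, and which description holds cannot be told from the labels. The other sample was labelled as control bone marrow cells of the same strain, medium and phenotype, with no tumour cells. No age, sex or number of animals was given, and the time for which the control was cultured is not stated. With 1 array per group, the values have no replicate error and no difference was tested.

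The control array gave no value for any proteasome gene. Its signals formed falling sequences down the list of probe sets: 6.9% of steps from row to row were rises, against 49.9% in the ID8-induced array, and within its upper and lower value ranges 0 were. A control signal could therefore not be tied to a gene, and no fold change is given. The myeloid identity in the labels was checked on marker genes. Itgam, which encodes CD11b, read 2375. Of 9 listed myeloid markers 5 were measured, and all 5 reached the 90th percentile of the array, against 14.8% of all named genes. Cebpe, Ly6g, Ly6c1 and Ly6c2 were listed and not measured, so the Gr1 part of the phenotype was not checked. Ly6g was not analysed here. In a bulk sample fewer cells of a type and less RNA per cell cannot be told apart.

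The 26S proteasome degrades ubiquitin-tagged proteins in the cytosol and nucleus. Its 20S core is a barrel of alpha and beta rings in which 3 beta subunits, encoded by Psmb5, Psmb6 and Psmb7, cut peptide bonds, and its 19S cap binds, unfolds and feeds in the substrate. In cells of the immune system and after interferon gamma, newly made cores take up Psmb8, Psmb9 and Psmb10 in place of Psmb5, Psmb6 and Psmb7 and become immunoproteasomes, whose peptides are well suited to MHC class I molecules. The constitutive genes are known targets of the transcription factor encoded by Nfe2l1, which binds antioxidant response elements (ARE). Interferon acts through transcription factors that bind GAS and ISRE elements.

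Promoter letters of Psmb5, Psmb6, Psmb8 and Psmb9 are shown because the catalytic subunit genes carry the comparison between the constitutive and the induced form. Psmb7 and Psmb10 are not shown, and neither had a recorded match to any of the 8 motifs searched. A missing match can also mean that no window was found. Psmb9 matched neither the ARE nor the GAS letters, so the matches shown do not separate the constitutive from the induced genes as sets. The sequences are from RefSeq on GRCm38.p6, 5' to 3' on the strand of the named gene, and end at the last base before the annotated start. Capitals mark a match to TGACNNNGC (ARE core) in Psmb5 and Psmb6 and to TTCNNNGAA (GAS) in Psmb8. In the last sequence, which fills the 225 bases between the starts of Psmb9 and Tap1 and is written on the Psmb9 strand, capitals mark GGGCGG (GC box) and CCAAT read on the other strand.
Psmb5 (chr14:54617996-54618105, minus strand): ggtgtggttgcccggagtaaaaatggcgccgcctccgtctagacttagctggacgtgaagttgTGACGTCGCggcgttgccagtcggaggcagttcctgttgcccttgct
Psmb6 (chr11:70525247-70525356, plus strand): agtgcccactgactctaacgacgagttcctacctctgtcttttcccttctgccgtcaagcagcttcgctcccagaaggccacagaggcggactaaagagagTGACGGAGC
Psmb8 (chr17:34198085-34198194, plus strand): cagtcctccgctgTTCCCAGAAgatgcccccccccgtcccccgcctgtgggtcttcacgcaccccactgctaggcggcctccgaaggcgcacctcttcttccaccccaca
Psmb9 and Tap1 (chr17:34187331-34187555, minus strand): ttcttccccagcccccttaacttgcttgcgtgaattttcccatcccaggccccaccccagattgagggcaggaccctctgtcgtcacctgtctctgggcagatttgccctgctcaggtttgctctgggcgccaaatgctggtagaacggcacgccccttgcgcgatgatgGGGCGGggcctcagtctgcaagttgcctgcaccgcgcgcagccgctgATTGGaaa
The match in Psmb5 began 47 bases before the start, that in Psmb6 9 bases before it, and that in Psmb8 97 bases before it. No match in the stretches shown overlapped another. Windows from 250 bases before to 50 after the start were found for 39 of the 47 genes, and both strands were searched. The ARE core stood in 6 of the 39 genes (15.4%) and in 14.0% of 27025 genes, and the GAS letters in 3 (7.7%) and in 9.6%. ISRE letters, GAAA repeated after any pair of bases, stood in 5 of the 39 (12.8%) and in 4.0% of all genes. They were found in Psmb3, Psmd4, Psmd9, Psme1 and Psmg4 and in none of the catalytic subunits with a window. NF-kB letters stood in 6 of 39 (15.4%), against 9.6%. A match of letters is a description and not a binding site, and a window without one says nothing of the factor.

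Most proteasome genes gave strong signals in ID8-induced MDSC. Signals are MAS5 intensities on a linear scale, and each gene is represented by its brightest probe set. The percentile of a gene is the percentage of the array's probe sets that read lower than it. At or above the 40th percentile, a signal of 68.77 used as the floor, lay 48 of 49 genes (98.0%), against 71.3% of all named genes. At or above the 90th percentile, a signal of about 619.81, lay 26 (53.1%), against 14.8%. The median percentile was 90.8 for the 49 genes and 61.4 for all. Genes that are used by most cells are bright on most arrays, and a list's place says nothing about a response to the tumour cells. These counts depend on which probe set stands for a gene. When the log2 signals of all its probe sets were averaged, 15 of 49 genes reached the 90th percentile, against 8.61% of all. With the dimmest probe set 14 did, against 6.46%, and 33 lay above the floor, against 49.7%. With probe sets without a suffix letter in their ID 16 of 43 reached the 90th, against 11.7%.

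**Figure D1:**
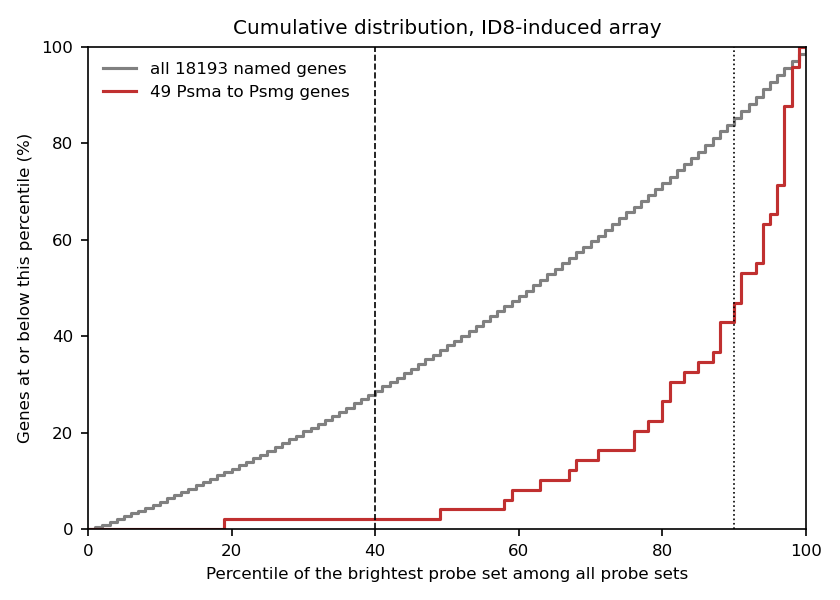
The share of genes (vertical axis, percent) whose brightest probe set lies at or below each percentile of the ID8-induced array (horizontal axis), for the 49 Psma to Psmg genes (red) and all 18193 named genes (grey). The dashed line is the floor at the 40th percentile and the dotted line the 90th, at or above which lay 53.1% of the 49 genes and 14.8% of all.

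Among the catalytic subunits, 5 of 6 genes reached the 90th percentile, against 14.8% of all named genes. With the mean log2 signal or the dimmest probe set 4 did, against 8.61% and 6.46% of all. The constitutive subunit genes each had 1 probe set. Psmb5, the chymotrypsin-like subunit, read 1308 (percentile 95.1). Psmb6, the caspase-like subunit, read 1067 (94.0). Psmb7, the trypsin-like subunit, read 1338 (95.3). The 3 signals thus lay within a narrow band.

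The immunoproteasome counterparts were spread more widely. Psmb9 (LMP2), which replaces Psmb6, read 2146 on its single probe set (97.1). Psmb8 (LMP7), which replaces Psmb5, read 1737 on one probe set (96.4) and 73.23 on its other (42.5). Psmb10 (MECL-1), which replaces Psmb7, read 335.66 on its single probe set (83.0). Every probe set of both forms thus read above the floor in the same sample. The median percentile was 96.4 for Psmb8, Psmb9 and Psmb10 and 95.1 for Psmb5, Psmb6 and Psmb7. The ranges overlapped (83.0 to 97.1 and 94.0 to 95.3).

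These values are set side by side and not ranked. Signals are not per transcript length, and each probe set hybridises in its own way. The place of Psmb8 depends on the probe set. The brighter one carries the suffix _a_at, given to probe sets that detect several transcripts of 1 gene. It was designed from a RefSeq or BC (full-length cDNA) record. The dimmer one carries _x_at, given where some probes may also bind unrelated sequences. With the mean log2 signal over both, Psmb8 had a percentile of 83.8, which was then also the median of the 3 genes. Psmb11, the catalytic subunit of the thymoproteasome of cortical thymic epithelium, read 114.75 (58.6). All 4 listed thymic epithelium markers, Psmb11 among them, lay above the floor, against 71.3% of all named genes. With the dimmest probe set 2 of the 4 did, against 49.7%. None reached the 90th percentile. Krt5 read 192.87 (72.8), Krt8 106.89 (56.3) and Foxn1, the defining factor of thymic epithelium, 85.12 (48.1). The other probe set of Foxn1 read 15.18. A signal above the floor does not by itself show that a gene was expressed.

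**Figure D2:**
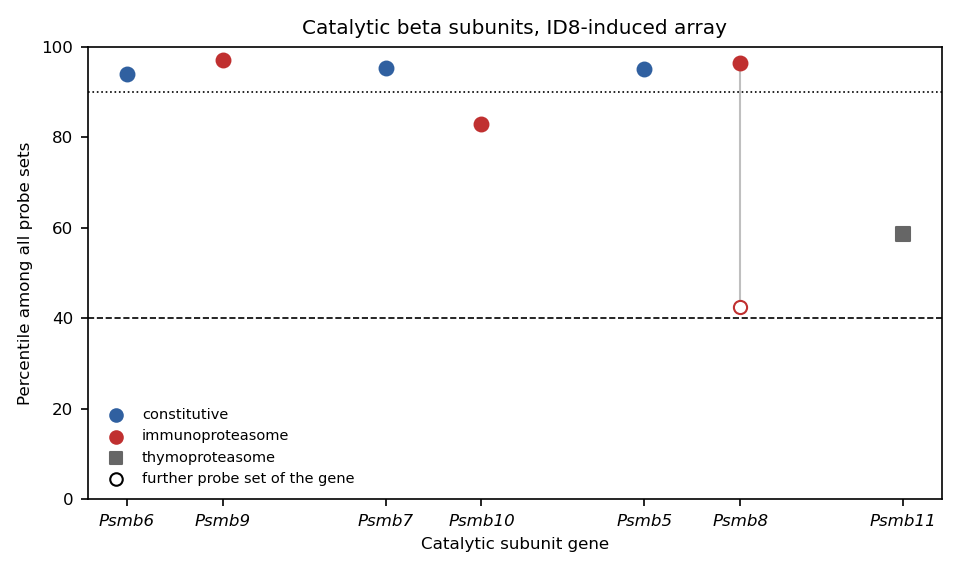
Percentile of each probe set among all probe sets of the ID8-induced array (vertical axis) for the catalytic subunit genes (horizontal axis), each constitutive gene (blue) beside the immunoproteasome gene that replaces it (red), with Psmb11 as a grey square. Lines mark the 40th and 90th percentile, and the open circle is the second probe set of Psmb8 at 42.5.

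The remaining core subunits form the walls and gates of the barrel. All 7 alpha subunit genes of the common core reached the 90th percentile on their brightest probe set, against 14.8% of all named genes. With the mean log2 signal or with the dimmest probe set 3 of the 7 did, Psma2, Psma4 and Psma7, against 8.61% and 6.46% of all. Psma6 read 2608, Psma1 2167, Psma2 2065, Psma7 1822, Psma5 1742, Psma3 1539 and Psma4 989.91. Psma8, whose product takes the place of Psma7 in germ cells of the testis, read 36.36 (18.2) on its single probe set and was the 1 gene of the 49 below the floor. Of the structural beta subunit genes, Psmb4 read 2045, Psmb1 1692, Psmb3 656.29 and Psmb2 478.87, the last with a percentile of 87.4. Of the 17 core genes without Psma8 and Psmb11, 15 reached the 90th percentile, against 14.8% of all named genes. With the mean log2 signal or the dimmest probe set 9 did, against 8.61% and 6.46%.

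The 19S cap is built of a base, with a ring of ATPases that unfolds the substrate, and a lid. Among the 6 ATPase genes, Psmc6 read 3374 and Psmc2 1005. These 2 of the 6 reached the 90th percentile, against 14.8% of all named genes. With the mean log2 signal or the dimmest probe set 0 did, against 8.61% and 6.46% of all. Psmc3 read 570.16, Psmc4 294.92, Psmc1 273.12 and Psmc5 242.09, with percentiles from 77.6 to 89.2. The base also holds the scaffold and the ubiquitin receptor. Psmd4, the ubiquitin receptor Rpn10, read 1813, the scaffold gene Psmd2 789.60 and its partner Psmd1 456.06.

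Lid genes covered a wide range. Psmd8 read 4652 (99.0), Psmd11 1937, Psmd3 1077 and Psmd14, the lid's deubiquitinase Rpn11, 911.89. Psmd12 read 677.29 and Psmd13 603.87. Psmd6 and Psmd7 read 268.16 (79.4) and 157.77 (67.9). In all, 9 of 17 base and lid genes lay at or above the 90th percentile, against 14.8% of all named genes. With the mean log2 signal 5 did, against 8.61%, and with the dimmest probe set 4, against 6.46%. The median percentile of the base and lid genes was 90.8, and that of the 17 core genes 96.3.

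Activators bind the ends of the core in place of the cap. Psme1, the alpha chain of the interferon-inducible activator PA28, read 2716 (97.8). The probe set shared by Psme2 and Psme2b read 4034 (98.7). Psme3, which encodes the nuclear activator PA28 gamma, read 222.81 (75.9), and Psme4, which encodes PA200, 677.30 (90.8). The dimmest of the 3 probe sets of Psme3 read 32.30, and the dimmest of the 6 of Psme4 36.36, both below the floor. With the mean log2 signal their percentiles were 59.0 and 75.8. Psmf1, which encodes the inhibitor PI31, read 172.51 (70.2) on 1 probe set, and its other 3 lay below the floor between 29.06 and 46.28.

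Assembly chaperones help build the particle and are not part of it once it is complete. None of the 7 genes for such chaperones among the 49 reached the 90th percentile, against 14.8% of all named genes. With so few genes this count is near that share. Their median percentile was 66.3, beside 61.4 for all. With the mean log2 signal it was 45.5, beside 51.6, and with the dimmest probe set 29.9, beside 39.7. Pomp, the maturation factor of the core, is not among the 49 by name and read 752.28 (91.6). It is named here after its value was seen. The base chaperone genes Psmd5, Psmd10 (gankyrin) and Psmd9 read 483.94, 361.64 and 148.50. The core chaperone genes Psmg3, Psmg4, Psmg1 and Psmg2 read 216.59, 132.18, 111.20 and 86.65. On their brightest probe sets their median percentile was 60.3, close to the 61.4 of all named genes. With the mean log2 signal their median was 43.9, beside 51.6 for all, and with the dimmest probe set 21.4, beside 39.7. The matches by name that are not subunits, Psme3ip1 and Psmc3ip, read 495.15 and 287.89.

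**Figure D3:**
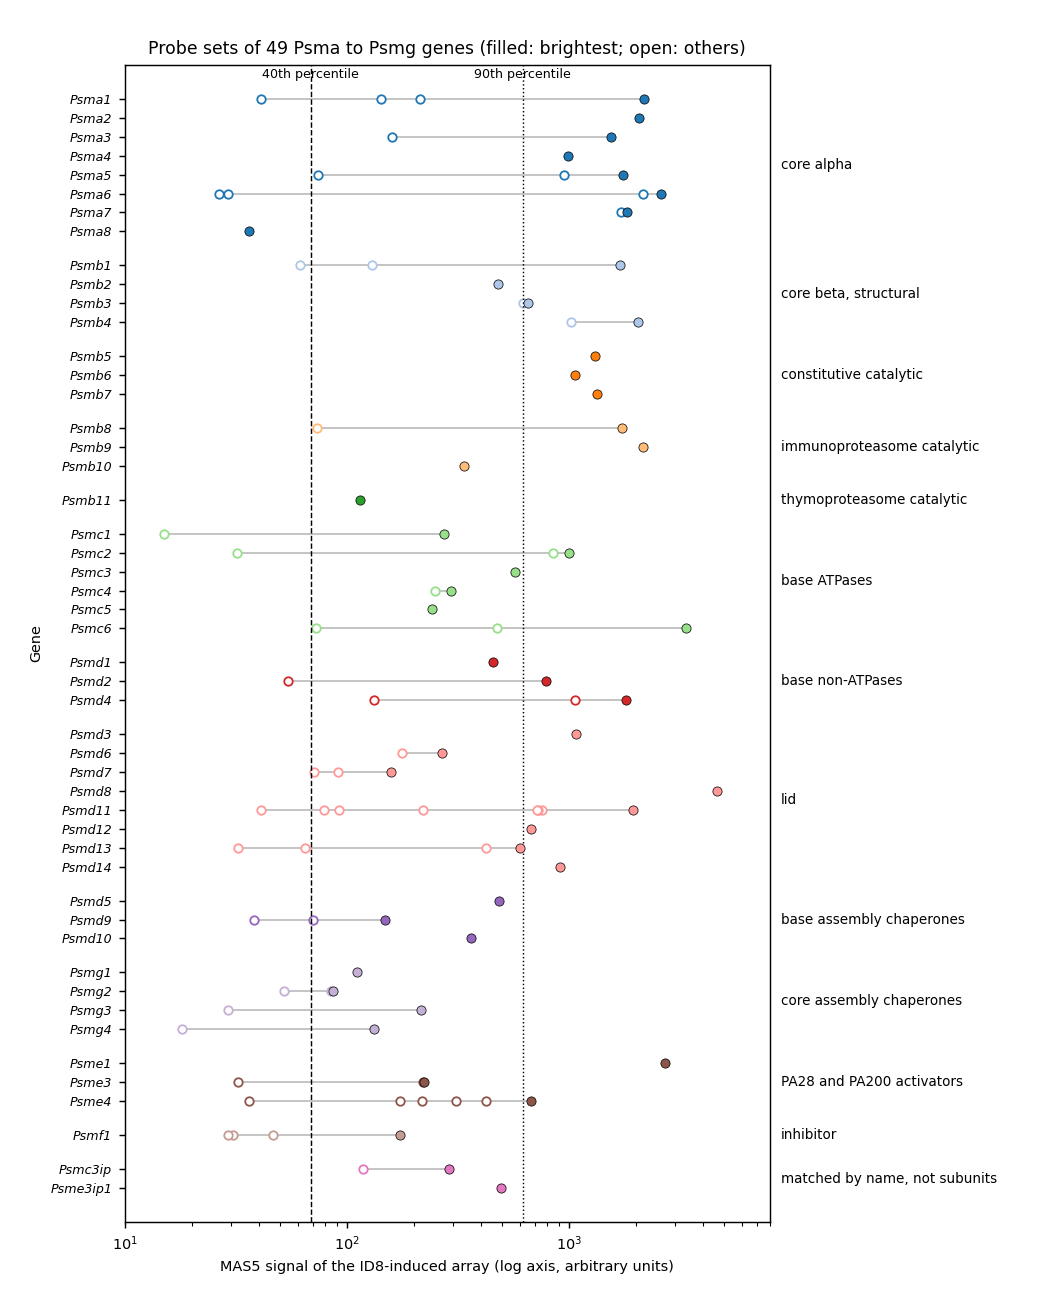
MAS5 signal of every probe set (horizontal axis, logarithmic) of the 49 genes (vertical axis), grouped by role, with the brightest probe set of a gene filled and the others open. The dashed and dotted lines mark the 40th and 90th percentile of the array. Of the 103 probe sets, 20 lie left of the dashed line, in 16 genes.

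Probe sets of one gene often disagreed, and this is the only check within the array. Of the 49 genes, 22 had 1 probe set and 27 several. The brightest probe set of a gene read a median of 9.59 times its dimmest over the 27, beside 3.01 times over 9009 named genes with several. The ratio reached 10 in 13 of the 27 (48.1%), beside 14.6% of all. Among all named genes at or above the 90th percentile with several, the median ratio was 7.05, and over the 15 such proteasome genes it was 23.53. The cause of the difference was not tested.

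Single genes show the size of the disagreement. Psmc6 read 3374, 471.60 and 72.35 on its 3 probe sets. Psma6 read 2608 and 2146 on one pair of probe sets and 29.19 and 26.49 on another. The 8 probe sets of Psmd11 ran from 41.01 to 1937, and 4 of the 8 lay above the 90th percentile. Agreement was close for Psma7 (1822 and 1714), Psmb3 (656.29 and 623.17) and Psmc4 (294.92 and 248.32), the only 3 of the 27 with a ratio under 1.5.

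Signals are given next by the record from which a probe set was designed. The 41 probe sets designed from RefSeq or BC (full-length cDNA) records had a median signal of 603.87, and 37 (90.2%) lay above the floor. The 39 from other records apart from AK records had a median of 157.77, and 27 (69.2%) lay above it. The 7 from AK records had a median of 91.36, with 85.7% above the floor, and the 16 with no accession listed 261.02, with 81.2%, so medians and shares did not follow a single order. Over all named probe sets the medians for RefSeq or BC and for other records were 127.24 and 92.85, and 70.1% and 61.1% lay above the floor. The part of probe design in the disagreement was not tested.

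Other genes that work with the proteasome were counted from lists of known members. The list of cofactors and regulators held 12 symbols, among them older names (Shfm1 for Sem1, AI314180 for Ecpas) of genes also listed under current ones. Of the 12 symbols 8 were measured, all 8 above the floor, as were 71.3% of all named genes. At or above the 90th percentile lay 6, against 14.8% of all. With the mean log2 signal or the dimmest probe set 2 did, against 8.61% and 6.46%. The lid component gene Sem1 read 5484, Zfand5, a zinc finger protein that binds the proteasome, 4112, Akirin2, which carries proteasomes into the nucleus, 1335, and Ecpas, a proteasome adaptor, 1193. Nfe2l1, named for its part in the background above and outside the naming rule, read 499.57 (87.9). Of 10 genes for ubiquitin and its conjugation 4 were measured, and all 4 lay above the floor, against 71.3%. With the dimmest probe set 2 of them did, against 49.7%. The conjugating enzyme genes Ube2d3, Ube2n and Ube2l6 read 8752, 972.42 and 288.95, and the activating enzyme gene Uba6 359.86.

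The MHC class I pathway loads the peptides that the proteasome cuts. All 13 listed genes lay above the floor and 10 at or above the 90th percentile, against 71.3% and 14.8% of all named genes. With the mean log2 signal 7 reached the 90th, against 8.61%, with a median percentile of 90.2 in place of 96.1. With the dimmest probe set 5 did, against 6.46%, with a median of 71.6. B2m, the light chain of class I molecules, read 13665, the heavy chain genes H2-K1 and H2-D1 13244 and 12484, and Tapbp (tapasin) 3792. In the RefSeq table of GRCm38.p6, Psmb8 lies between Tap1 and Tap2, the genes of the peptide transporter, and Tap1 is also the neighbour of Psmb9. The brightest probe sets of these 4 neighbours were at 1737, 1634, 630.62 and 2146 for Psmb8, Tap1, Tap2 and Psmb9, each at or above the 90th percentile. The other probe sets of Tap1 reached down to 7.84, and its mean log2 signal had a percentile of 53.2.

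Interferon signalling genes lay above the floor in 13 of 13 measured cases and at or above the 90th percentile in 10, against 71.3% and 14.8% of all named genes. With the mean log2 signal 10 reached the 90th percentile, against 8.61%, and with the dimmest probe set 7, against 6.46%. Ifnar2, a chain of the type I interferon receptor, read 4912, the kinase gene Jak1 3094, and the transcription factor genes Irf1 and Irf2 2563 and 1960. Lymphocytes also carry immunoproteasomes, and their markers were measured beside these values. Of 7 T and NK cell markers 6 lay above the floor, against 71.3% of all named genes. At or above the 90th percentile lay 0, against 14.8% (range 38.0 to 85.9). With the mean log2 signal 5 of the 7 lay above the floor, against 62.4%, and with the dimmest probe set 3, against 49.7%. Ncr1, an NK cell receptor gene, lay below the floor at 65.21 on its single probe set. Of 5 B lineage markers all lay above the floor, against 71.3% of all named genes, 4 of them with percentiles from 45.0 to 78.9. Ighm lay at 98.5 on the brightest of its 11 probe sets. Its mean log2 signal had a percentile of 71.3, and its dimmest probe set read 36.60. With the mean log2 signal 3 of the 5 lay above the floor, against 62.4%, and with the dimmest probe set 2, against 49.7%. Of 7 epithelial and mesothelial markers, which the ID8 cells could carry, 4 passed the floor, against 71.3% of all named genes. At or above the 90th percentile lay 0, against 14.8%. With the mean log2 signal 3 of the 7 passed the floor, against 62.4%, and with the dimmest probe set 2, against 49.7%. On their single probe sets Krt19 (46.03), Wt1 (52.31) and Cdh1 (21.57) fell short of the floor. The part of lymphocytes or ID8 cells in the proteasome signals was not tested.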

How the data were processed

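The 2 samples were each measured on 1 array. Per the labels' protocols, TRIzol was used for extraction, and 6 ug of RNA went into biotinylated cRNA. The submitters' processing notes name MAS5; version and scaling target are not stated there. The deposited signal intensities, linear and 1 per probe set, were used as given, from the ID8-induced column only. Of 45037 probe sets, 34945 carried 1 gene symbol, 932 several and 9160 none. All 49 genes had an Entrez ID in the RefSeq table of GRCm38.p6, under the same symbol. The brightest probe set stood for its gene, which favours genes with many (2.1 per proteasome gene, 1.92 over all). The floor was the 40th percentile. Members, lists and motifs were chosen with earlier results of these data known, and every gene matched by name is described; of the pathway lists the 4 genes with the highest percentiles and any below the floor are named, and marker lists are given by counts. The alternatives tried were the floor at the 20th or 60th percentile, a gene's dimmest probe set, the mean log2 signal of its probe sets, and probe sets without a suffix letter. The number of arrays limits the precision. Scripts were tested on simulated data. Tools were matplotlib 3.10.9, scipy 1.17.1, numpy 2.4.6, pandas 2.3.3 and Python 3.11.15.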

Additional observations from a re-analysis of the deposited data

How the results depend on the processing

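The count above the floor was 48 of 49 genes, beside 71.3% of all named genes, and stayed within 1.5 times under every alternative run. It was 48 and 45 with the floor at the 20th and 60th percentile. Of all named genes, 12.47% and 48.38% lay at or below these percentiles. It was 45 with the mean log2 signal (beside 62.4% of all), 33 with the dimmest probe set (beside 49.7%) and 41 of 43 without suffix letters (beside 68.0%). The count at or above the 90th percentile fell from 26 to 15 with the mean log2 signal (30.6%, beside 8.61% of all named genes), to 14 with the dimmest probe set (28.6%, beside 6.46%) and to 16 of 43 without suffix letters (37.2%, beside 11.7%). The median percentile of the 49 genes, 90.8, became 83.8, 68.3 and 86.0 in the same order, and that of all named genes, 61.4, became 51.6, 39.7 and 57.7. For Psmb8, Psmb9 and Psmb10 the median of 96.4 became 83.8, 83.0 and 90.1, below that of Psmb5, Psmb6 and Psmb7, which was 95.1, 95.1 and 94.6. Without suffix letters Psmb5 and Psmb8 had no probe set left. The percentile of a single gene left its 95% binomial interval over 45037 probe sets, which covers counting error only and is narrow, for 25 of 49 genes with the mean, 27 with the dimmest and 7 of 43 without suffix letters. Shifts as small as that of Psma7 from 96.6 to 96.3 are among these. No paired analysis was possible because each group held 1 array.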

Other observations

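Other promoter letters were searched in the same windows after those given above, 8 motifs in all, and are given as values. CCGGAAG, the core bound by ETS factors, stood in 14 of 39 proteasome genes (35.9%) and in 9.9% of 27025 genes. The 14 were the cap genes Psmc1, Psmc2, Psmc6, Psmd2, Psmd4, Psmd6, Psmd11, Psmd12 and Psmd13, the chaperone genes Psmg1 and Psmg3, the activator genes Psme3 and Psme4, and the core gene Psma6, and no catalytic subunit with a window. GGGCGG stood in 22 (56.4%), against 38.2%, CCAAT in 14 (35.9%), against 41.1%, and the CRE letters TGACGTCA in 0, against 2.0%. The median GC content of the windows was 57.3% for proteasome genes and 52.7% for all, and its part in these counts was not tested.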
